A study of Mus musculus with 8 samples.

Results

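Bone morphogenetic proteins (BMPs) are secreted ligands of the TGFβ family, and their reach is set outside the cell by secreted proteins that bind them. The genes described here are 10 of the 25239 gene rows counted in the E14.5 mouse fetal ovary. They are the ligands *Bmp2*, *Bmp4*, *Bmp5*, *Bmp6* and *Bmp7* and the extracellular antagonists and modulators *Grem1*, *Nog*, *Chrd*, *Fst* and *Twsg1*. Their rows were taken by gene symbol and not by any measured value, but earlier results of these data were known when the genes were chosen. The question was which of these ligands and antagonists the fetal ovary expressed, and whether their transcripts differed when germ cells lacked the receptor BMPR1A.

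RNA-Seq of whole ovaries compared 4 control libraries (*Bmpr1a* fl/fl) with 4 libraries of the conditional knockout (*Bmpr1a*-cKO), which carried Oct4-Cre (Cre/WT) beside *Bmpr1a* fl/fl, all from female embryos of a C57BL/6 background. Each library held the ovary pairs of 2 embryos, so 8 embryos of each genotype were used, and these came as littermates from 6 litters. The Cre was inducible by tamoxifen and driven by *Oct4*, which is active in germ cells, so the somatic cells of a *Bmpr1a*-cKO ovary kept the receptor gene. Both genotypes carried the floxed alleles on both chromosomes, and both were exposed to the drugs, because every dam received 1 mg of 4-hydroxytamoxifen and 0.5 mg of progesterone on 3 consecutive days (9.5 dpc, 10.5 dpc, then 11.5 dpc). The controls carried no Cre, so an effect of the Cre itself cannot be told apart from loss of the receptor. The litter of each library is not given in the sources used here.

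A BMP dimer binds type I and type II serine/threonine kinase receptors, of which BMPR1A is a type I receptor used by BMP2 and BMP4, and the receptor complex phosphorylates the SMAD proteins that carry the signal to the nucleus. Noggin, chordin and gremlin bind BMPs and keep them from their receptors, follistatin binds activins most strongly and some BMPs less so, and twisted gastrulation can either strengthen the hold of chordin on a BMP or help to release it. In the fetal ovary *Bmp2* is known as a gene of the somatic, supporting lineage, which also expresses *Fst* and *Foxl2*, whereas germ cells are marked by *Ddx4* and *Dazl*.

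Total counts were 10622684 to 15365052 per control library and 8562961 to 14887102 per *Bmpr1a*-cKO library. *Foxl2*, which encodes a transcription factor of pregranulosa cells, was at 113 to 122 CPM in control libraries, and the germ cell helicase gene *Ddx4* was at 121 to 168 CPM, so both cell types of the ovary were present. CPM is the count of a gene relative to the TMM-scaled library size. *Bmpr1a* itself averaged 218 ± 15.3 CPM in the controls (SD, n = 4) against 195 ± 10.5 CPM in the 4 *Bmpr1a*-cKO libraries, with a Log2FC of -0.16 and an FDR of 0.0692 by the edgeR quasi-likelihood test. Its counts are of the whole gene in whole ovaries, so they do not check the labels.

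Per length of transcript, the antagonists *Fst* and *Twsg1* stood far above the others of the 10 genes. *Bmp2* was the most abundant of the 5 ligands described and *Bmp7* the next. Other extracellular genes of the pathway were not placed in this order. Levels of different genes are compared here only as CPM per kb of annotated exon, with the mean and SD of 4 control libraries. *Fst* was at 38.5 ± 2.96, *Twsg1* at 32.2 ± 3.08, *Bmp2* at 14.8 ± 0.630 and *Bmp7* at 5.94 ± 0.505 CPM per kb. Among the 13960 tested genes with an annotated length, these levels were at the percentiles 94.2, 92.4, 77.3 and 48.9. *Bmp6* at 2.38 ± 0.211, *Bmp4* at 2.24 ± 0.402, *Bmp5* at 1.32 ± 0.412 and *Chrd* at 1.16 ± 0.142 CPM per kb lay between the percentiles 16.2 and 27. *Nog* was at 0.511 ± 0.137 CPM per kb, and *Grem1* was listed at 0.

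In that order, the ranges over control libraries overlapped for 3 pairs of neighbours: *Fst* and *Twsg1*, *Bmp6* and *Bmp4*, and *Bmp5* and *Chrd*. Within each of the 4 control libraries, however, *Fst* was above *Twsg1*. All other neighbours were apart in all 4 control libraries. In *Bmpr1a*-cKO ovaries *Twsg1* (32.4 ± 1.34 CPM per kb) came before *Fst* (31.0 ± 2.42), and *Bmp4* (2.55 ± 0.331) before *Bmp6* (1.90 ± 0.389), with the libraries of each pair again overlapping. When the longest transcript was used as the length in place of all exons, *Chrd* (1.65 ± 0.202 CPM per kb) came before *Bmp5* (1.39 ± 0.434) in control ovaries.

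**Figure D1:**
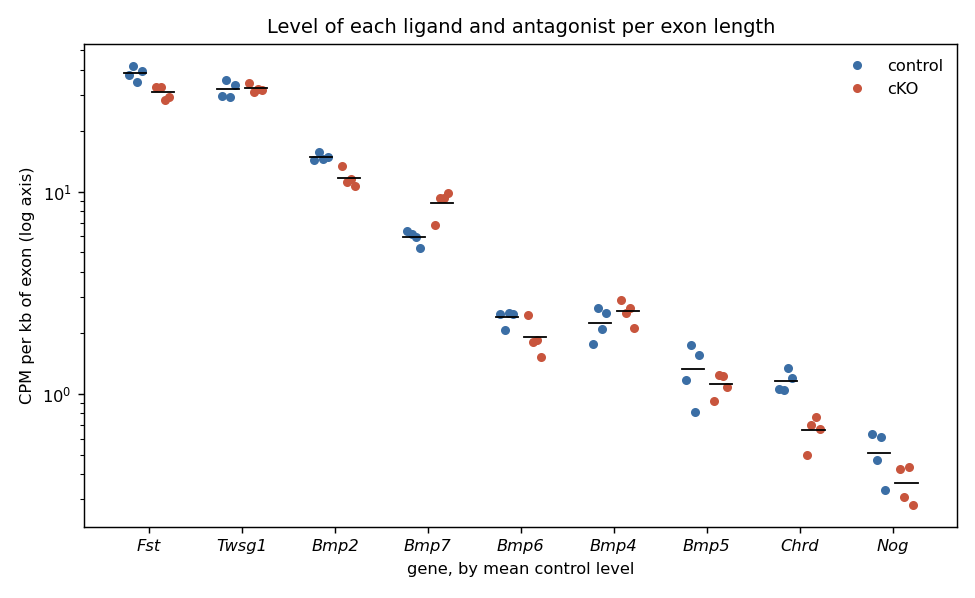
Level of 9 of the 10 genes in CPM per kb of exon (log axis), with each point a library (blue, control; red, *Bmpr1a*-cKO; n = 4 each) and each line a group mean; *Grem1*, at 0, cannot be drawn on a log axis. The control means fall from 38.5 for *Fst* to 0.511 for *Nog*.

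Of the 10 genes, 8 passed the filter on low counts and were tested, and *Grem1* and *Nog* did not. A differentially expressed gene (DEG) had an absolute Log2FC above 0.5, where Log2FC is the log2 fold change of *Bmpr1a*-cKO over control, and a false discovery rate (FDR) below 0.05. One of the 8 was an upregulated DEG, *Bmp7*, where 6.11% of all 14249 genes tested were upregulated, and 1 was a downregulated DEG, *Chrd*, where 4.06% of all genes were. By the FDR alone 1 rose (17.3% of all genes) and 3 fell (12.5% of all genes), the latter being *Chrd*, *Bmp2* and *Fst*. For these same 4 genes the libraries of the genotypes did not overlap: 1 gene had all *Bmpr1a*-cKO libraries above the controls, as did 16.1% of all genes tested, and 3 had them all below, as did 11.7%. The median Log2FC of the 8 genes was -0.28 and that of all genes tested was -0.0042.

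Each ovary is a mixture of cells, and in such bulk samples fewer cells of a type and less RNA per cell cannot be told apart. Over all genes tested, 6.11% were upregulated and 4.06% downregulated DEGs, and 17.3% were higher and 12.5% lower by the FDR alone. The 7 pregranulosa markers were all lower in *Bmpr1a*-cKO ovaries, 6 of them with an FDR below 0.05. *Foxl2* was a downregulated DEG among them, at 72.9 to 88.2 CPM in *Bmpr1a*-cKO libraries (Log2FC -0.57, FDR = 1.8e-05), and the summed level of the 7 ran from 1215 to 1458 CPM in control libraries against 1034 to 1236 CPM in *Bmpr1a*-cKO. The 11 germ cell markers included 3 upregulated and 3 downregulated DEGs, and summed to 758 to 1001 CPM in control libraries against 745 to 1168 CPM in *Bmpr1a*-cKO. Of 6 macrophage markers, 3 were upregulated DEGs, and of 4 steroidogenic markers tested, 1, *Hsd3b1*, was a downregulated DEG (Log2FC -0.63). Of 7 markers of the mesonephros, the tissue beside the gonad, 5 were tested and 1 was lower by the FDR, *Emx2* (119 ± 13.8 CPM in the controls, 99.1 ± 6.94 in *Bmpr1a*-cKO, FDR = 0.0202), which is also a gene of the gonadal somatic list. The other 4, *Pax2*, *Pax8*, *Lhx1* and *Cdh16*, overlapped between the genotypes with an FDR of 0.115 to 0.764, and *Wnt9b* had 0 to 2 counts per library. Of 5 Sertoli cell markers 1, *Sox9*, was lower by the FDR (Log2FC -0.44, FDR = 0.0135) and 0 were DEGs. Markers of stroma, endothelium and surface epithelium included 0 genes with an FDR below 0.05. The part of these shifts in the results on the ligands and antagonists was not tested.

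*Bmp2*, the ligand gene known for its ovary-biased expression in the fetal gonad, was lower in *Bmpr1a*-cKO ovaries (chromosome 2, 133552159 to 133562885, plus strand, mm10). Of the 5 ligands described it had the highest level per kb. Its CPM in control libraries 1 to 4 was 50.7, 55.7, 51.2 and 52.8, and in *Bmpr1a*-cKO libraries 1 to 4 it was 47.7, 39.9, 40.9 and 38.0. Every *Bmpr1a*-cKO library lay below every control library, and *Bmpr1a*-cKO library 1 lay closest to them. The group means were 52.6 ± 2.24 and 41.6 ± 4.22 CPM (SD, n = 4 each), which gave a Log2FC of -0.35 (SE 0.0760, 95% interval -0.51 to -0.18, FDR = 0.00307 by edgeR). *Bmp2* fell by 21.3%, which passed the FDR but not the fold threshold of a DEG. Scaled to 12 gonadal somatic markers in place of TMM, its Log2FC was -0.13 (FDR = 0.241). Scaled to 11 germ cell markers it was -0.30 (FDR = 0.317), so the call was lost under both. Of the 12 somatic markers, however, 11 were themselves lower in *Bmpr1a*-cKO ovaries, 6 of them with an FDR below 0.05. The 11 germ cell markers held 3 upregulated and 3 downregulated DEGs. Scaling to genes that moved themselves cannot decide whether *Bmp2* changed.

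*Bmp7*, which encodes a ligand known from kidney and eye development, was the only 1 of the 5 ligands that was a DEG, and it rose (chromosome 2, 172868012 to 172940321, minus strand). Control libraries 1 to 4 gave 25.7, 24.9, 23.9 and 21.0 CPM, and *Bmpr1a*-cKO libraries 1 to 4 gave 27.3, 37.2, 37.4 and 39.6 CPM. The groups did not overlap, but *Bmpr1a*-cKO library 1 was near the highest control and the other 3 stood well above it. Means were 23.9 ± 2.03 and 35.4 ± 5.48 CPM, a rise of 49.7% with a Log2FC of 0.58 (SE 0.106, 95% interval 0.36 to 0.81, FDR = 0.000734). Without *Bmpr1a*-cKO library 1 the Log2FC was 0.68, and over the fits that each left out 1 library it was 0.51 to 0.68.

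The library that was least shifted for *Bmp2* and *Bmp7* also differed in germ cell markers and in most pregranulosa markers. *Bmpr1a*-cKO library 1 had 106 CPM of *Ddx4*, where the other 3 *Bmpr1a*-cKO libraries had 159 to 179 CPM, and 382 CPM of *Dazl*, where they had 513 to 615 CPM. It was also the shallowest library, with 8562961 counts. Of the pregranulosa markers, *Wnt4* was at 207 CPM in this library against 144 to 162 CPM in the other 3. *Irx3* was at 132 CPM against 88.8 to 97.9 CPM. *Foxl2* (88.2 against 72.9 to 82.5 CPM) and *Runx1* (87.9 against 74.1 to 80.0 CPM) were highest there too. So were *Lgr5* (65.9 against 58.4 to 62.8 CPM) and *Kitl* (610 against 532 to 592 CPM). Only *Rspo1* of these markers, at 44.8 CPM, lay within the range of the other 3 (43.0 to 49.8 CPM). Whether the germ cell content, the somatic content or the depth of *Bmpr1a*-cKO library 1 had a part in its values was not tested.

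*Bmp6*, which encodes a ligand known for iron balance and for the oocyte, was low and did not pass the test (chromosome 13, 38345107 to 38500302, plus strand). Its CPM was 9.70, 8.06, 9.74 and 9.66 in control libraries 1 to 4 and 9.54, 6.99, 7.22 and 5.94 in *Bmpr1a*-cKO libraries 1 to 4. The groups overlapped because *Bmpr1a*-cKO library 1 lay among the controls and control library 2 lay below the other controls. The Log2FC was -0.35 (SE 0.144, 95% interval -0.66 to -0.04) with an FDR of 0.0790. Leaving out *Bmpr1a*-cKO library 1 gave -0.48 with an FDR of 0.0122, leaving out control library 2 gave -0.42 with an FDR of 0.0492, and the FDR stayed above 0.05 without any other single library. It was also below 0.05 with limma-voom (0.0476) and with library size as the scaling (0.0425).

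*Bmp4*, known for its role in specifying primordial germ cells earlier in development, was at 3.95, 5.93, 4.68 and 5.62 CPM in control libraries and at 6.56, 5.65, 5.97 and 4.78 CPM in *Bmpr1a*-cKO libraries (chromosome 14, 46383520 to 46390669, minus strand). The libraries of the genotypes overlapped, with a Log2FC of 0.16 (95% interval -0.19 to 0.51, FDR = 0.497). *Bmp5*, a close relative of *Bmp6* and *Bmp7*, was at 4.69, 6.996, 3.28 and 6.25 CPM in control and at 3.70, 4.98, 4.92 and 4.37 CPM in *Bmpr1a*-cKO libraries (chromosome 9, 75775364 to 75900310, plus strand). All 4 *Bmpr1a*-cKO libraries of *Bmp5* lay within the range of the controls, with a Log2FC of -0.24 (95% interval -0.68 to 0.20, FDR = 0.416). For both genes the interval reached past the DEG threshold on 1 side, so a change of that size could not be told from none at 31 to 99 counts per library. An antisense gene, *Gm26903*, shares 46.7% of the exon bases of *Bmp5*. Whether the counting used strand is not given in the sources used here, and its reads may be among those of *Bmp5*.

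**Figure D2:**
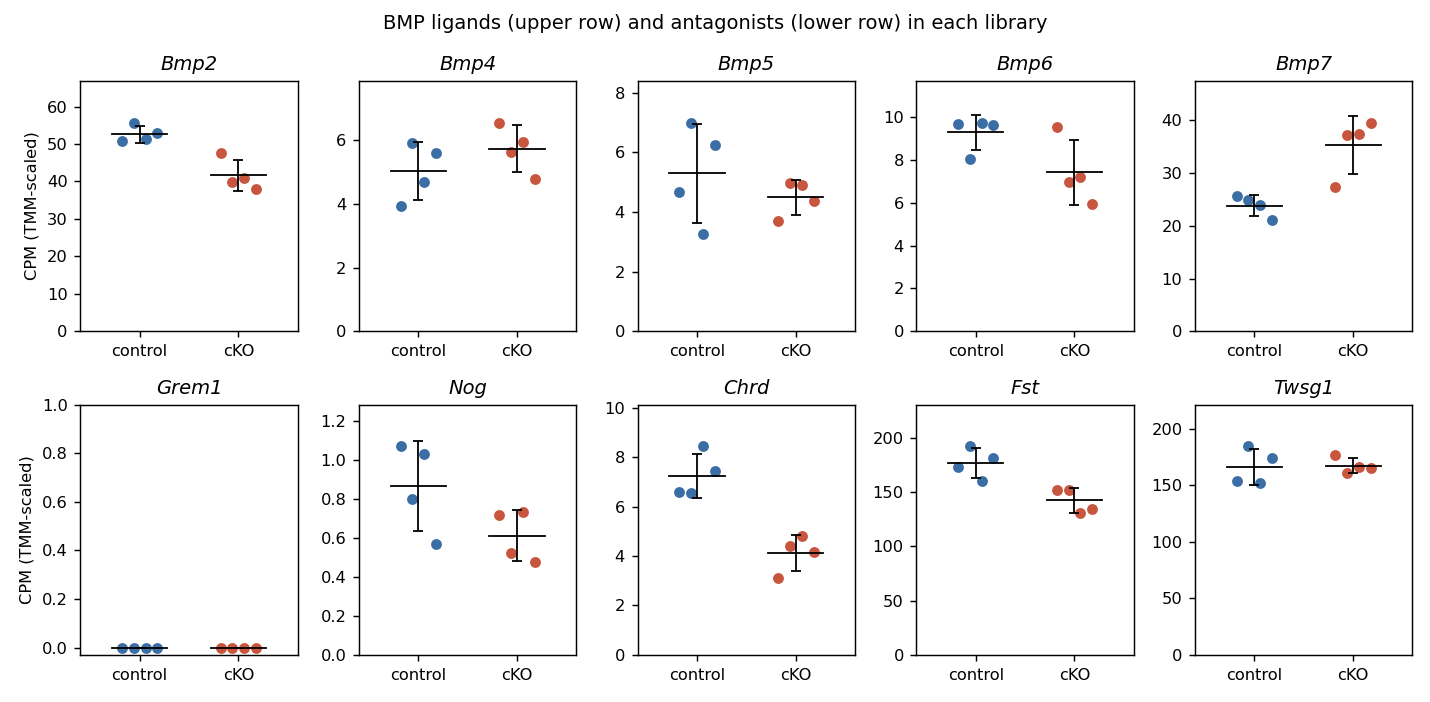
CPM after TMM scaling in each library for the 5 ligands (upper row) and the 5 antagonists (lower row), with each point a library, lines and bars the mean and SD of 4 libraries, and a separate linear axis for each gene. The genotypes do not overlap for *Bmp7*, which is higher in *Bmpr1a*-cKO, or for *Bmp2*, *Chrd* and *Fst*, which are lower.

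The changes of *Bmp2* and *Bmp7* moved the makeup of the ligand transcripts, while their sum stayed within a narrow range. Summed over the 5 ligands, the level was 25.7 to 28.3 CPM per kb for control libraries and 25.3 to 26.5 for *Bmpr1a*-cKO. *Bmp2* made up 54.8% to 56.0% of this sum in control libraries but 42.3% to 50.6% in *Bmpr1a*-cKO. *Bmp7* made up 19.6% to 24.5% of it in control libraries but 25.6% to 39.0% in *Bmpr1a*-cKO. The level of *Bmp2* over that of *Bmp7* was thus 2.24 to 2.84 in control libraries. In *Bmpr1a*-cKO library 1 that ratio was 1.97, and in libraries 2, 3 and 4 it was 1.21, 1.24 and 1.09. *Bmp4*, *Bmp5* and *Bmp6* each held between 3.16% and 11.01% of the sum, and the shares of each overlapped between the genotypes. These shares are mRNA levels and carry no test, since they restate the 5 values above.

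**Figure D3:**
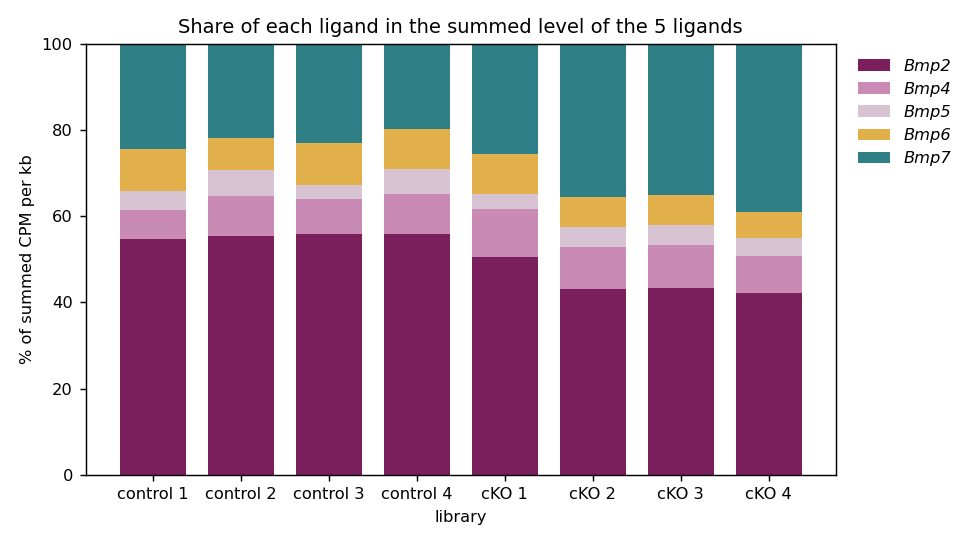
Share of each ligand in the summed CPM per kb of the 5 ligands (%, stacked to 100), with 1 bar for each library. *Bmp2* holds 54.8% to 56.0% of control bars and 42.3% to 50.6% of *Bmpr1a*-cKO bars, and *Bmp7* 19.6% to 24.5% and 25.6% to 39.0%.

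Among the antagonists, *Chrd*, which encodes the BMP-binding protein chordin, had the largest change of the 8 genes tested, and it fell (chromosome 16, 20733127 to 20742384, plus strand). Its control libraries held 80, 74, 90 and 118 counts (6.58, 6.55, 8.43 and 7.45 CPM), and its *Bmpr1a*-cKO libraries held 26, 59, 46 and 61 counts (3.10, 4.39, 4.82 and 4.16 CPM). All *Bmpr1a*-cKO libraries lay below all controls, with library 1 the lowest. From 7.25 ± 0.888 to 4.12 ± 0.730 CPM, *Chrd* fell by 42.6% (Log2FC -0.80, SE 0.157, 95% interval -1.14 to -0.47, FDR = 0.00132). It remained a DEG in 21 of 21 other fits, as did *Bmp7*. *Thpo*, on the opposite strand, shares 3.82% of the exon bases of *Chrd*.

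The promoter of *Chrd* is shown because it was the only DEG of the 10 genes with an entry in the RefSeq promoter table used here, beside that of *Bmp4*, a low ligand gene that did not pass the test. Entries were found for 6 of the 10 genes, *Bmp4*, *Bmp5*, *Bmp6*, *Grem1*, *Chrd* and *Twsg1*, on assembly GRCm38.p6. Each line gives the 250 bases before the start, 5′ to 3′ on the strand of the gene, with capitals for the letters GGCGCC, a GC-rich element that SMAD proteins can bind.
*Chrd*, chr16:20732877-20733126, plus strand: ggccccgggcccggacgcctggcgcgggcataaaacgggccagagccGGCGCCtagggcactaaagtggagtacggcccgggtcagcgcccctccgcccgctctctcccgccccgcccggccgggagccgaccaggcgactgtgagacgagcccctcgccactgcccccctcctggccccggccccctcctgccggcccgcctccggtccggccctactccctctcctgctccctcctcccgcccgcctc
*Bmp4*, chr14:46390670-46390919, minus strand: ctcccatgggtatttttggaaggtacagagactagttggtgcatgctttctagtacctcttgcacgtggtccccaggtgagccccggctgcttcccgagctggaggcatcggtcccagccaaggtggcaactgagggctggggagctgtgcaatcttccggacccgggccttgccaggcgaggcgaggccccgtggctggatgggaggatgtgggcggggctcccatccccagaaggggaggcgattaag

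The *Chrd* sequence was 78% G or C and held GGCGCC once, 203 bases before the start, and the *Bmp4* sequence was 63.2% G or C and held none. Of the other 4 promoters searched, that of *Grem1*, a gene listed at 0, also held GGCGCC, and those of *Bmp5*, *Bmp6*, *Grem1* and *Twsg1*, none of them a DEG, held the SMAD box CAGAC. Both strands were searched, and for the palindrome GGCGCC they are the same. Of 32851 promoters of this length, 9.59% held GGCGCC. Neither the *Chrd* nor the *Bmp4* sequence held CAGAC (in 42.2% of all promoters), TAATTG (an MSX homeobox core, in 7.17%) or GTAAACA (a forkhead core, in 3.17%) on either strand, and these motifs do not overlap each other in their letters. A match describes the letters only, and says nothing of binding in these ovaries.

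*Fst*, which encodes follistatin, had the highest mean level per kb of the 10 genes in control ovaries and was lower in *Bmpr1a*-cKO ovaries (chromosome 13, 114452290 to 114458951, minus strand). The CPM was 173, 192, 159.8 and 182 in control libraries 1 to 4 and 152, 152, 131 and 135 in *Bmpr1a*-cKO libraries 1 to 4. The groups did not overlap, but the highest *Bmpr1a*-cKO and the lowest control library were close. With means of 177 ± 13.6 and 142 ± 11.1 CPM, *Fst* fell by 19.6% (Log2FC -0.31, SE 0.0706, 95% interval -0.46 to -0.16, FDR = 0.00359) and was not a DEG by the fold threshold. Its call was lost when libraries were scaled to gonadal somatic markers (Log2FC -0.10, FDR = 0.321) or to germ cell markers (-0.28, FDR = 0.364), as for *Bmp2*. The same limit applies, since markers of both lists moved themselves.

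*Twsg1*, which encodes twisted gastrulation, was at 153, 184, 152 and 174 CPM in control and 177, 161, 166 and 165 CPM in *Bmpr1a*-cKO libraries (chromosome 17, 65921972 to 65951226, minus strand). All 4 *Bmpr1a*-cKO libraries were within the control range, and the Log2FC was 0.01 (95% interval -0.14 to 0.16, FDR = 0.935), so a change past the DEG threshold lay outside the interval. The sign of so small a value flipped with the scaling. *Fst* over *Twsg1*, as a ratio of CPM within a library, was 1.04 to 1.13 for control libraries and 0.787 to 0.944 for *Bmpr1a*-cKO. This ratio leaves out length, so it shows the shift between the genotypes and not which gene was higher. Per kb, *Fst* was above *Twsg1* in *Bmpr1a*-cKO library 2 (33.1 against 31.2) and below it in libraries 1, 3 and 4.

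*Nog*, which encodes noggin, was close to the limit of detection, with 13, 9, 11 and 9 counts in control and 6, 7, 7 and 7 counts in *Bmpr1a*-cKO libraries (chromosome 11, 89300638 to 89302332, minus strand). That is 0.866 ± 0.232 and 0.612 ± 0.131 CPM, and the groups overlapped in CPM. Fitted without a filter on low counts its Log2FC was -0.52 with an FDR of 0.378, and a difference was not detectable at this depth. *Grem1*, which encodes gremlin 1, was listed at 0 counts in all 8 libraries (chromosome 2, 113746164 to 113758646, minus strand). A count of 0 allows up to 3 counts, or 0.189 CPM in the deepest library and 0.358 CPM in the shallowest, and covers counting error only. The globin rows *Hbb-bs*, *Hbb-bt*, *Hba-a1* and *Hba-a2* were also at 0, although *Alas2*, of the same erythroid cells, had counts in all 8 libraries. A row at 0 in these files may therefore not show that a transcript was absent.

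Among the other extracellular genes tested, 1 was an upregulated and 1 a downregulated DEG, where 6.11% and 4.06% of all genes tested were. Of 14 other BMP and GDF ligands, 5 were tested, and *Gdf3*, a TGFβ family ligand gene known from pluripotent cells, was the 1 DEG (2.47 ± 0.241 CPM in control and 3.63 ± 0.731 in *Bmpr1a*-cKO, Log2FC 0.58, FDR = 0.0322). Its libraries overlapped, and it was a DEG in 13 of 21 other fits. By the FDR alone 1 of the 5 rose, *Gdf3*, and 1 fell, *Gdf11*, a ligand gene related to myostatin (28.3 ± 1.80 and 21.9 ± 1.98 CPM, Log2FC -0.38, FDR = 0.00335), whose *Bmpr1a*-cKO libraries all lay below the controls. *Gdf1* was listed at 0, and all of its exon bases lie within *Cers1* on the same strand. Of 22 other extracellular modulators, 15 were tested, and *Chrdl2*, which encodes a chordin-like protein, was the 1 DEG (1.40 ± 0.443 and 0.619 ± 0.0917 CPM, Log2FC -1.13, FDR = 0.0138, on 5 to 20 counts per library) and the 1 gene of this list with an FDR below 0.05.

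On the receiving side of the pathway, 0 of 11 receptors and SMAD genes were DEGs, with 4 higher and 1 lower by the FDR alone. Of all genes tested, 6.11% were upregulated and 4.06% downregulated DEGs, and by the FDR alone 17.3% were higher and 12.5% lower. Of 9 known BMP target genes, 5 were downregulated DEGs (*Id1*, Log2FC -0.86, *Id4*, -0.55, *Msx1*, -1.20, *Msx2*, -1.81, and *Zglp1*, -1.28), and 8 had an FDR below 0.05, but *Id4* was a DEG in 18 of 21 other fits only (FDR = 0.0622 with germ cell marker scaling, Log2FC -0.33 with gonadal somatic marker scaling and -0.47 without control library 2), and *Zglp1* shares 92.2% of its exon bases with *Gm49373* on the same strand, which leaves its counts uncertain.

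Genes with the profile closest to that of each DEG were found by the root mean square difference of log2 CPM over the 8 libraries, each gene centred on its own mean. For *Bmp7* these were *Rb1* (0.0790), *D030056L22Rik* (0.0796) and *Plekha1* (0.0858), where the median gene differed by 0.364. Their Log2FC was 0.59, 0.51 and 0.49. For *Chrd* they were *C530005A16Rik* (0.105), *Reln* (0.107) and *Brsk2* (0.107), where the median gene differed by 0.473. *Reln*, which encodes the secreted glycoprotein reelin, went from 17.3 to 10.8 CPM, and *Brsk2*, which encodes a kinase, from 8.48 to 4.73 CPM. The shift between the genotypes is part of the difference used. A Log2FC like that of the DEG and a difference below that of the median gene thus follow from the selection.

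The calls for *Bmp7* and *Chrd* held under every other test, scaling and filter run and without each library, with a Log2FC of 0.51 to 0.80 for *Bmp7* and -0.87 to -0.58 for *Chrd*. Scaling to gonadal somatic markers moved the median Log2FC of all genes to 0.21, and under it neither *Bmp2* nor *Fst* passed the FDR. Such a scaling shifts all genes by nearly the same amount.

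**Figure D4:**
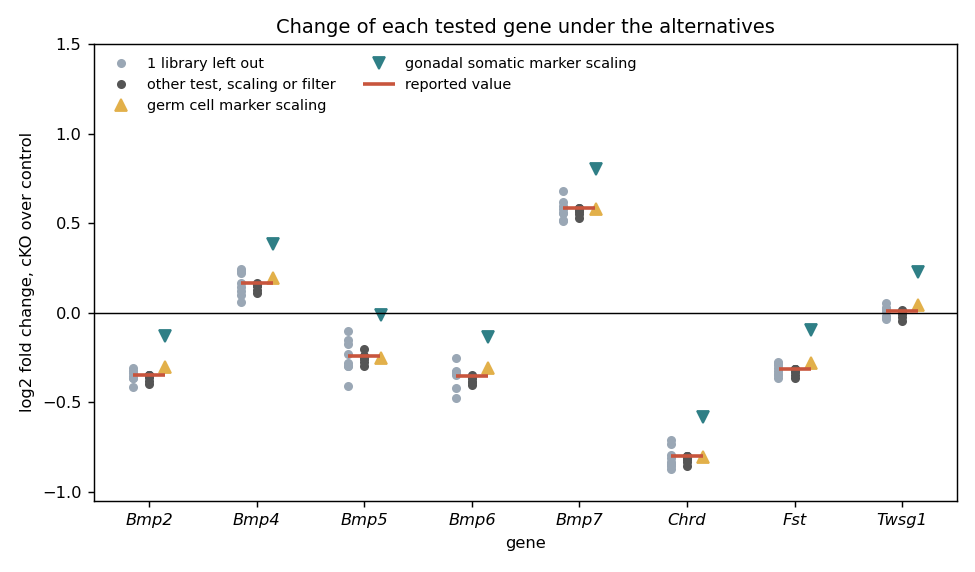
Log2FC (y axis, *Bmpr1a*-cKO over control) of the 8 tested genes as reported (red line) and under the alternatives, with grey points for fits without 1 library, dark points for other tests, scalings and filters, and triangles for marker scalings. *Bmp7* stays between 0.51 and 0.80 and *Chrd* between -0.87 and -0.58, whereas *Twsg1* lies on both sides of 0.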

How the data were processed

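RNA was measured in 4 control and 4 *Bmpr1a*-cKO libraries of E14.5 ovaries. The authors trimmed reads with Trimmomatic 0.39, checked them with FastQC 0.11.9, mapped them with STAR 2.5.2 to mm10 and deposited whole-number counts per gene symbol, without normalization. The library kit was directional. The annotation and strand setting of the counting are not given in the sources used here. A further table deposited by the authors holds a scaled signal for 14244 genes, each value a count times 1 constant per library with column sums of 969246 to 1026078, and served only as an alternative gene filter.

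The analysis used edgeR 4.0.16 under R 4.3.3 for CPM, fold changes and tests (filterByExpr, TMM, the quasi-likelihood F test, 2-sided). P-values were adjusted by Benjamini and Hochberg's method across every tested gene. Of 25239 genes 14249 were tested. The DEG thresholds were those of the study's methods. Log2 CPM for profile likeness carried a prior count of 2. Alternatives used limma 3.58.1, DESeq2 1.42.0, other scalings, filters and thresholds, a replicate block and each library left out. Lengths, positions and overlaps came from GENCODE vM21, and promoters from RefSeq. The fitting procedure was tested on simulated data. The libraries are labelled as replicates, and the study's methods describe each as a pool of ovary pairs. No sample was left out. Replicate pairs differed by more than counting noise.

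The genes named are the 10 themselves, the other pathway genes that were DEGs, the 3 nearest profiles of each DEG among the 10, *Bmpr1a*, and *Foxl2* and *Ddx4* as tissue markers. The genes and lists were chosen with earlier results of these data known. *Dazl*, *Gdf1*, *Gdf11*, *Hsd3b1*, *Sox9*, *Wnt4*, *Irx3*, *Runx1*, *Lgr5*, *Kitl*, *Rspo1*, the mesonephros genes and the erythroid genes were named after their values were seen. Some genes of the other lists are not reported here by name.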

Additional observations from a re-analysis of the deposited data

Results flagged for a closer look

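For *Bmp6*, control library 2 stood apart from the other 3 controls. It was at 8.06 CPM and the others at 9.66 to 9.74 CPM, so its gap to the nearest of them was 0.95 of the range of the group, above the 95% critical value of Dixon's test for 4 samples. Of 18 groups examined, 2 for each of the 9 genes with counts, this was the 1 above that value, and chance flags about 1 group in 20.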

How the results depend on the processing

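*Bmp7* and *Chrd* were DEGs in 21 of 21 other fits, and the number of DEGs among the 10 genes stayed at 2 in all of them. With no fold threshold it was 4, and with a Log2FC above 1 it was 0. Genes of the 10 with an FDR below 0.05 numbered 4, but 2 with germ cell marker scaling, 3 with gonadal somatic marker scaling (*Bmp2* and *Fst* lost, *Twsg1* gained), 5 with limma-voom or library size scaling, and 4 to 5 with 1 library left out. *Twsg1* changed sign with DESeq2 (-0.0011), RLE (-0.0011), upper-quartile (-0.025) or library size scaling (-0.044), and its Log2FC was -0.037 to 0.054 with 1 library left out, with no FDR below 0.05 in any of these fits. It was 0.23 (FDR = 0.0329) with gonadal somatic marker scaling. The 7 DEGs of the other pathway lists became 16 with no fold threshold, 4 with a Log2FC above 1 and 6 to 8 with 1 library left out. Over all genes, 871 upregulated and 578 downregulated DEGs (1449 in all) became 2034 and 281 (2315) with gonadal somatic marker scaling, 2461 and 1781 (4242) with no fold threshold and 321 and 180 (501) with a Log2FC above 1. The cause of these shifts was not tested, other than the thresholds themselves. Levels per kb moved with the longest transcript as length, for example from 38.5 to 60.5 CPM per kb for *Fst*. Replicate numbers are shared between genotypes, and the correlations of same-numbered deviations were 0.198, 0.161, 0.108 and -0.0871. Numbers were taken as pairs only if every pair deviated together, which number 4 did not, although 3 of 4 *Bmpr1a*-cKO libraries correlated best with their own number. With a replicate block there were 1457 DEGs (875 up, 582 down), 2 of them among the 10 genes, 4 of the 10 genes with an FDR below 0.05 and 7 DEGs in the other lists, and *Bmp7* had a Log2FC of 0.58 and *Chrd* of -0.81. Low counts limit *Nog*, *Bmp4*, *Bmp5* and *Chrdl2*. The DEGs *Chrd* (26 to 118 counts per library) and *Gdf3* (25 to 60) also rest on low counts.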
